A study of Mus musculus with 4 samples.

Results

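Gene expression in OSKM-CMPs at day 4 was compared with that of untreated cardiac mesenchymal progenitors (CMPs), the Sca-1-positive cells of the adult mouse heart, with 1 array of each. Day 0 was the day after the virus was added. Genes were taken into the comparison when at least 1 of their probes was well above background on either array, which kept 33709 of the 55681 probes. Of the kept probes, 22289 could be named, and they stood for 16217 of the 22229 genes that could be named on the arrays. All changes below are day 4 minus control on the log2 scale.

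The series holds 4 single-colour Agilent arrays, 1 for each of CMP control, OSKM-CMP day 4, day 6 and day 8. CMP control was labelled as without any treatment. The OSKM-CMPs carried Oct4, Sox2, Klf4 and c-Myc delivered by Sendai virus, and were kept from day 0 in a reprogramming medium from which leukemia inhibitory factor had been removed. Cells of both groups came from C57BL/6 mice. The labels of both groups give a culture medium with 40 ng/ml bFGF, where the study's methods give a lower concentration for the growth medium of CMPs. Those methods list no bFGF among the components of the reprogramming medium. For each array 250 ng of RNA was labelled. The labels do not say whether the control was ever kept in the reprogramming medium. The factors, the virus, the time in culture and any change of medium cannot be told apart between these 2 arrays. There was no replicate, so no difference between the arrays was tested. The error given after a change (±) is 1 SD from the scanner software's error model, which covers neither cultures nor RNA preparation. It also leaves out any disagreement between the probes of a gene. A gene is said to have risen or fallen when it changed by at least 2-fold.

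Oct4, Sox2, Klf4 and c-Myc are transcription factors that together can return differentiated cells to a pluripotent state. Mesenchymal progenitors can also become fat, bone, cartilage or smooth muscle cells, and the choice among these fates is read from a few well known gene groups. Contractile and matrix genes mark the myofibroblast-like state of cells that spread on a stiff surface. PPARγ and C/EBPα drive the fat cell program. An RNA virus such as Sendai virus can be sensed in the cytosol and can lead to interferon production and to the transcription of interferon-stimulated genes.

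Between 56.6% and 59.6% of the probes on an array were well above background. The signal at the 75th percentile, which set the scale of each array, was 389 for the control and 388 at day 4. All 4 arrays lay on 1 slide and were read in 1 scan. Probes spotted at least 3 times, 399 on each array, had a median SD between spots of 0.083 on both arrays of the comparison. A difference between the 2 arrays thus carries a technical SD of 0.12 from spotting alone.

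Of the 16217 genes, 1911 rose (11.8%) and 1578 fell (9.73%). Larger changes leaned toward higher levels, with 412 genes at least 8-fold higher against 217 at least 8-fold lower, and 90 against 28 beyond 32-fold. Most of the transcriptome moved little. The median change was -0.02, and 57.3% of the genes changed by less than 0.5. Among the 14265 genes well above background on both arrays by every probe, 1134 rose (7.95%) and 1095 fell (7.68%). In that set the lean was smaller at 8-fold, with 136 genes higher against 106 lower, and the counts at 32-fold were 33 against 12. A further 833 genes were not well above background in the control and 596 were not so at day 4, and their changes are mostly given as bounds. Such genes passed the filter only through the array on which they were bright. Counts for the gene groups below cover the measured members, which are those kept by the filter, and are to be read against the shares of all genes. Over the kept probes, named or not, 10.7% were higher and 8.67% lower by at least 2-fold. Of 785 genes past 2-fold with several probes, 745 had all probes moving in 1 direction. The calls were most frequent among dim genes. In the fifth of the genes with the lowest mean level 26.0% rose and 15.4% fell, against 3.98% and 7.15% in the fifth with the highest level. After normexp background correction with quantile normalization, which pulls dim values together, 886 genes rose and 799 fell.

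**Figure D1:**
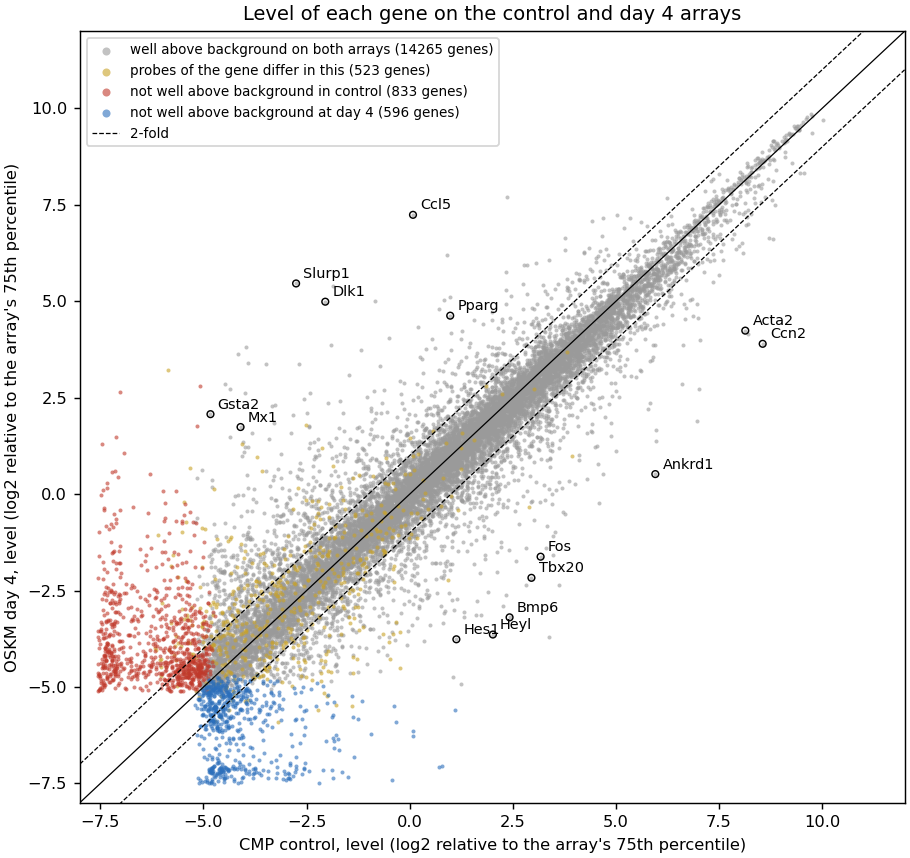
Level of each of the 16217 genes on the CMP control array (x axis) and on the OSKM day 4 array (y axis), in log2 units relative to the 75th percentile of the array. Each point is 1 gene, coloured by whether its probes were well above background; the solid line marks equal levels and the dashed lines a 2-fold change. Most genes lie between the dashed lines, and Ccl5, Slurp1, Dlk1, Acta2, Ccn2 and Ankrd1 are among those far from them.

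The endogenous genes for the transduced factors were examined first. Klf4 started at 4.43 and stood at 3.51, 3.65 and 3.63 on days 4, 6 and 8, a change of -0.92 ± 0.20 by day 4. Myc fell, from 1.17 to -1.48, and stood at -1.74 and -1.91 on the later days, a change of -2.65 ± 0.15. The mouse probes for Pou5f1 (Oct4) and Sox2 were not well above background on any of the 4 arrays. The probes were designed for mouse transcripts and need not read virus transcripts, so these values do not measure the transduced factors. Mycn, the Myc family member of early progenitors, was at least 77.7-fold lower at day 4.

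Sequences are shown for 4 genes whose promoter window holds a motif named for their gene group, because the values of these groups follow below. The stretches lie within the 250 bases before the annotated gene start, come from RefSeq on assembly GRCm38.p6, and are written 5′ to 3′ on the strand of the gene. Capitals mark the motif, which is the core of the interferon-stimulated response element (TTCNNTTTC on either strand) for Rsad2 and Ddx60, the CArG box bound by serum response factor for Acta1, and the CCAAT box for Prc1.
Rsad2, chr12:26456533-26456601, minus strand: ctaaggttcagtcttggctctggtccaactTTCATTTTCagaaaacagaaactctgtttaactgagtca
Ddx60, chr8:61928004-61928086, plus strand: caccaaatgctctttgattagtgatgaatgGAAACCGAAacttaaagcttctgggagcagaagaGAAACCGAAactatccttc
Acta1, chr8:123894809-123894878, minus strand: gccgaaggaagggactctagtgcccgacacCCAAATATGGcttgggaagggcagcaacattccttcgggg
Prc1, chr7:80294384-80294448, plus strand: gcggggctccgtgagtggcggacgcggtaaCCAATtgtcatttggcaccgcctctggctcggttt

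The contractile program of smooth muscle and myofibroblasts was among the strongest losses. Of 35 measured smooth muscle genes and targets of serum response factor, 15 fell and 3 rose, with a median change of -0.81. Acta2, the smooth muscle actin, started at 8.14 in the control and measured 4.24, 3.15 and 3.05 on days 4, 6 and 8. Its change by day 4 was -3.90 ± 0.06, or 14.9-fold lower. Tagln (transgelin), an actin-binding protein, went from 8.21 to 4.16, and then to 3.51 and 3.43. Both therefore started among the brightest genes of the control array and had lost most of their signal by the first sampled day. Cnn1, the calponin of smooth muscle, fell by 4.44 ± 0.21, the skeletal actin Acta1 by 3.85 ± 0.21 and the enteric actin Actg2 by 3.39 ± 0.21. Myl9, a regulatory light chain of myosin, fell by 2.15 ± 0.20. The 3 exceptions were Csrp2, a LIM-domain protein of smooth muscle, which rose by 2.03 ± 0.20, Synpo2, an actin-binding protein, which rose by 2.29 ± 0.25 with not all of its 3 probes above background on both arrays, and Myocd, the coactivator of serum response factor, which was at least 2.81-fold higher from a level at background. Myh11, the smooth muscle myosin heavy chain, was not well above background on either array.

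Many CCN proteins and many targets and factors of the YAP and TEAD pathway, which responds to cell tension, were lower as well. Of 35 measured members of this mixed list, 15 fell and 4 rose (median -0.73). Those that rose were Igfbp3 (4.53, not well above background by every probe on both arrays), Nt5e (1.77), Vgll4 (1.44) and F3 (1.03). Ccn2, a secreted matricellular protein, had levels of 8.56, 3.90, 4.15 and 4.67 on the 4 arrays, so that most of its loss was present at day 4. Its change was -4.66 ± 0.20. Ankrd1, a nuclear ankyrin repeat protein, fell by 5.44 ± 0.20 from 5.96, Ccn5 by 5.06 ± 0.20 from 6.96, and Ccn1 by 3.47 ± 0.20 from 5.84. Yap1 itself changed by 0.08.

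The matrix was changed gene by gene rather than as a whole. Of 35 collagen genes measured, 12 fell and 2 rose, with a median of -0.53 that shrank to -0.18 after normexp correction and to -0.06 with no filter on dim probes. The chains of type I collagen were among the brightest and changed little. Col1a2 had levels of 9.14 and 9.16 on the 2 arrays and Col1a1 of 8.14 and 8.08. The fibrillar Col3a1 fell by 1.00 ± 0.20 from 8.17 and Col5a2 by 1.70. Col8a1, a short-chain collagen of vessel walls, fell by 4.17 ± 0.20, and the basement membrane chain Col4a1 by 2.37 ± 0.06. Col18a1, which carries endostatin, rose by 1.61 ± 0.14, and Col6a3 by 1.26 ± 0.20. Among 47 matricellular and elastic fibre genes 16 rose and 16 fell. Elastin (Eln) went from 2.57 to -1.74 and the tenascin Tnc was at background by day 4. The small proteoglycans of the leucine-rich family parted ways. Lumican (Lum) rose by 3.12 ± 0.20 and asporin (Aspn) by 2.63 ± 0.20, whereas fibromodulin (Fmod) fell by 3.44 ± 0.20. Of 37 proteases and inhibitors, 10 rose and 12 fell. The aggrecanase Adamts15 rose by 7.07 ± 0.30. Among integrins the collagen receptor subunit Itga11 fell by 4.58 ± 0.20, and Itgb4, the hemidesmosome subunit of epithelia, rose by 2.79 ± 0.20.

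**Figure D2:**
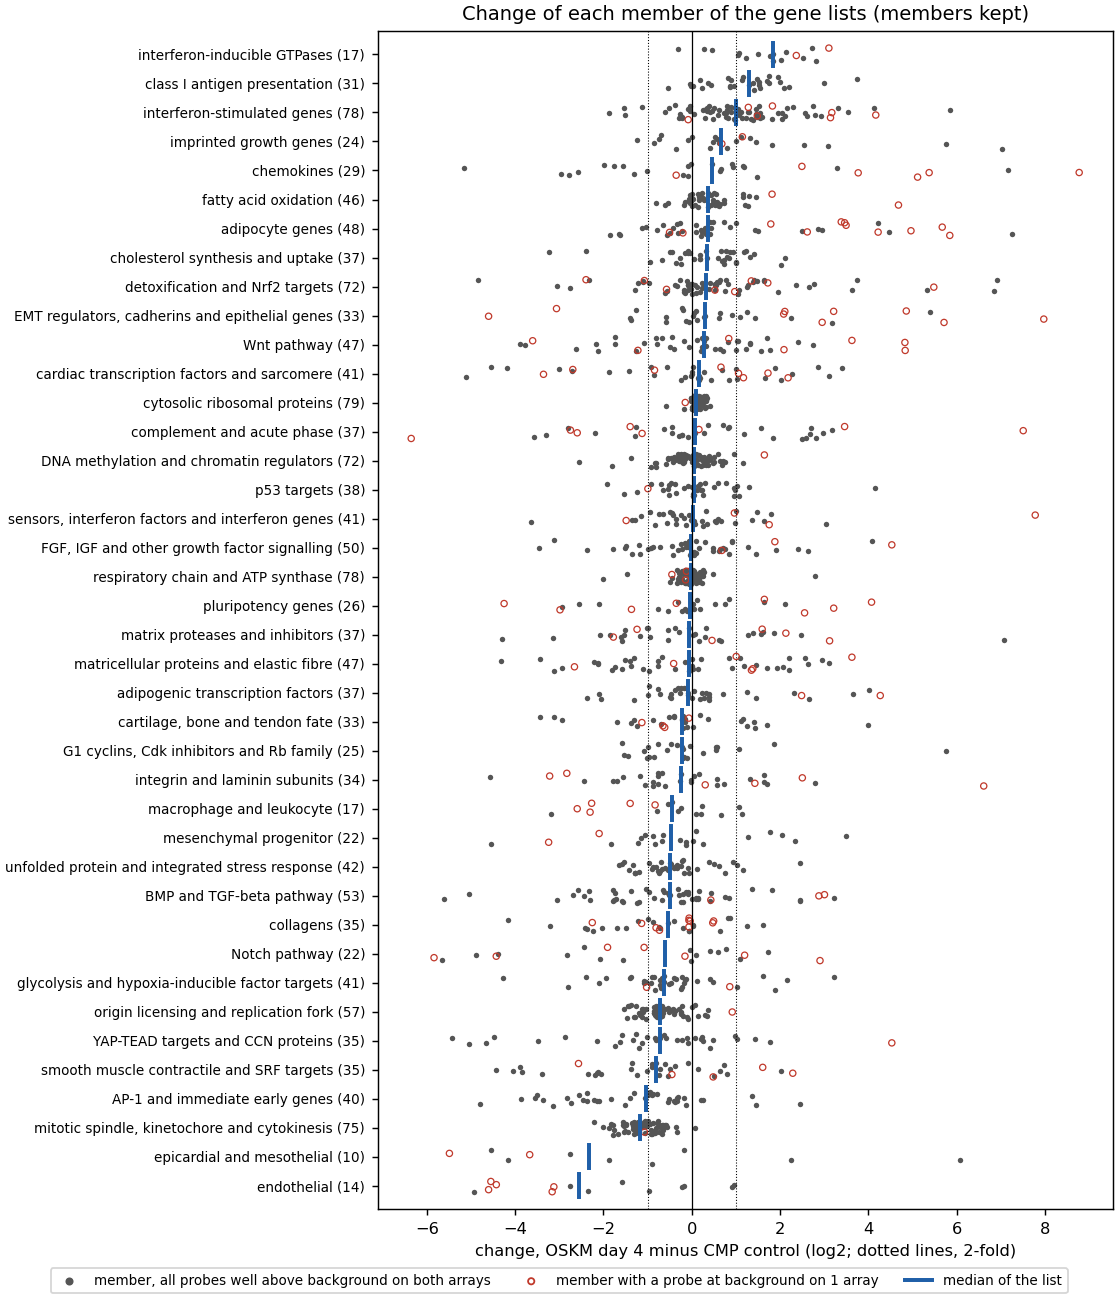
Change of every measured member (points; x axis, log2, day 4 minus control) in each gene list with at least 10 measured members (y axis, with the number of members measured). Blue bars are list medians and open red circles are members with a probe at background on an array. The medians of endothelial markers (-2.56) and interferon-inducible GTPases (1.84) lie at opposite ends here, but were -0.55 and 1.11 after normexp correction with quantile normalization, while respiratory chain and ribosomal protein genes cluster around 0.

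Immediate early genes and the feedback genes of growth factor signalling were lower in OSKM-CMPs at day 4. Of 40 measured, 21 fell and 3 rose (median -1.04). Fos, a subunit of the AP-1 factor, started at 3.17 and measured -1.62, 0.56 and -0.65 on the later arrays, so that its lowest value was at day 4. The change was -4.80 ± 0.07. Dusp1, a phosphatase that turns off MAP kinases, followed the same course, at 3.69, 0.17, 1.56 and 0.64. Egr1 stood at 5.05, 3.73, 5.74 and 4.61, higher at day 6 than in the control. Hbegf, a ligand of the EGF receptor, fell by 3.87, and the phosphatase Dusp4 by 3.55. Jun, the partner of Fos, changed by -0.55. Atf3, a stress-induced member of the same factor family, rose by 2.46 ± 0.22.

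In the Notch pathway, through which neighbouring cells signal to each other, 11 of 22 measured genes fell and 4 rose. The median of -0.62 was -0.03 with probes well above background on both arrays, -0.11 after normexp correction and -0.17 with dim values at the floor. Target genes had the lowest values of the list. Heyl had levels of 2.02, -3.64, -3.28 and -2.44, and Hes1 of 1.13, -3.76, -1.69 and -1.42, so that both regained part of their signal by day 8. Hey1 fell by 4.39 ± 0.22 and Hey2 was at least 12.8-fold lower. The ligand Jag1 fell by 2.43 ± 0.20. Among the receptors Notch4 fell by 2.83 ± 0.21, Notch3 by 1.56 ± 0.20 and the dim Notch1 by 1.08 ± 0.30, whereas Notch2 (-0.03) stayed within 2-fold, as did the DNA-binding partner Rbpj (0.59). Of 53 BMP and TGF-β genes, 19 fell and 7 rose (median -0.50, or -0.30 with no filter on dim probes). Bmp6 went from 2.42 to -3.19, Gdf6 from 3.48 to -1.57 and Bmp4 from 4.89 to 1.85, and the inhibitory Smad7 fell by 2.58. Bmp2 moved the other way, with levels of -2.31, 0.92, 0.27 and -0.36. In the Wnt pathway 14 of 47 genes rose and 11 fell (median 0.28, or 0.14 after scaling to the array median). The secreted inhibitors Sfrp1 and Frzb fell by 3.89 and 3.77, and the inhibitor Dkk1 was at background by day 4. On the other side, the R-spondin Rspo1 rose by 2.75 ± 0.27, the transcription factor Tcf7 by 2.40, and Sp5, a transcriptional target of the pathway, was at least 25.2-fold higher.

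Several transcription factors of the developing heart were lower at day 4. Tbx20, a T-box factor of the heart, had levels of 2.95, -2.17, -2.58 and -2.72, a change of -5.12 ± 0.12 over 3 probes. Gata4 fell by 4.17 ± 0.20, Tbx5 by 3.02 ± 0.23 and Tcf21, a factor of epicardial and fibroblast lineages, by 4.55 ± 0.21. Mef2c (0.28) stayed within 2-fold. Isl1, a factor of the second heart field, rose by 2.28 ± 0.07 and the homeobox genes Irx5 and Irx3 rose by 3.41 and 3.11. Of all 41 cardiac factors and sarcomere genes measured, 13 rose and 9 fell. The sarcomere genes Actn2 and Ttn were not well above background on either array.

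Markers of the labelled cell type were present on both arrays. Of 23 mesenchymal progenitor markers, 22 were well above background on each, with Dpp4 the exception. Ly6a, which encodes Sca-1, had levels of 4.65, 6.69, 6.96 and 7.35, a rise of 2.03 ± 0.20. Ly6c1 rose by 2.33 and Pi16 by 3.49, whereas Thy1 fell by 1.83 ± 0.20 from 8.07 and the endoglin gene Eng by 1.23. Of the 22 measured, 5 rose and 7 fell (median -0.46, or -0.21 with probes well above background on both arrays), and their summed level (linear, relative to the 75th percentile) was 1660 in the control and 1128 at day 4. Markers of other cell types moved with the comparison as follows, and their part in the other results was not tested. In the control 14 of 16 endothelial markers were well above background against 9 at day 4, with Cdh5, Emcn, Robo4, Sox18 and Tie1 lost between the arrays and Erg and Sox17 at background on both. Of 14 measured members 9 fell and none rose. Their median of -2.56 was -0.97 with probes well above background on both arrays and -0.55 after normexp correction. The summed level of the endothelial list was 19.5 in the control and 11.8 at day 4 over the kept probes, but 9.03 and 11.0 when dim probes were averaged in. Of 11 epicardial and mesothelial markers, 10 and 8 were well above background, with summed levels of 38.9 and 22.7. The list median of -2.33 was -1.39 with probes well above background on both arrays and -1.23 after normexp correction. Wt1 was at least 9.90-fold and Lrrn4 at least 4.97-fold lower. Tcf21, Upk3b, Aldh1a2 and Tbx18 fell by 4.55, 4.16, 2.77 and 1.88. Msln, the mesothelin gene, rose by 6.07 ± 0.21 and Krt19 by 2.25 ± 0.20. Macrophage and leukocyte markers had summed levels of 4.99 and 5.18, with 17 and 12 of 24 well above background. The T cell gene Cd3e was the brightest member on both arrays (0.59 and 0.81). The list median was -0.46, or -0.07 with probes well above background on both arrays. Lyz2 fell by 3.18 ± 0.30, while Cd14 and Coro1a rose by 1.06 and 1.13. The defining gene Ptprc and also C1qa, C1qc, Ctss and Tyrobp were well above background in the control and not at day 4. Of 16 cardiomyocyte markers, 5 and 9 were well above background, with summed levels of 20.0 and 9.21. Among the cardiomyocyte markers Tnnt2, a troponin of the thin filament, fell by 1.42 ± 0.20 from 3.56, and Tnni3 measured 3.31-fold higher from a level at background. Of 5 pericyte markers measured, 3 rose and 1 fell, with summed levels of 20.8 and 23.3. Rgs5 rose by 4.03 ± 0.20 and Notch3 fell by 1.56 ± 0.20. In such bulk RNA, fewer cells of a type and less RNA per cell cannot be told apart.

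Many cell division genes fell, by modest amounts. Of 75 measured genes of the mitotic spindle, kinetochore and cytokinesis, 47 fell and none rose (median -1.18). Ndc80, a kinetochore component, had levels of 0.79, -1.44, -2.11 and -2.86, so the decline continued after day 4. Prc1, which bundles microtubules at the midzone, stood at 5.23, 3.35, 3.00 and 2.48. Dlgap5 and Nuf2 fell by 2.01 ± 0.15 and 1.82. Cdc25b, the phosphatase that starts mitosis, changed by 0.06. Of 57 genes of origin licensing and the replication fork, 17 fell and none rose (median -0.72), among them Cdc45 (-1.53 ± 0.22) and Gins2 (-1.46), subunits of the replicative helicase, and Cdc6 (-1.43 ± 0.15), which loads it. The proliferation marker Mki67 changed by -0.74 ± 0.14.

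Genes that govern entry into the cycle moved in both directions. Among 25 G1 cyclins, inhibitors and Rb family genes, 3 rose and 5 fell. Ccnd1 (cyclin D1) fell by 1.55 ± 0.20 from 7.98. The inhibitor Cdkn1c (p57) had levels of -1.91, 3.86, 3.78 and 2.77, a rise of 5.77 ± 0.21. Cdkn2a rose by 1.86 ± 0.14 and Cdkn2b by 1.06 ± 0.14. The inhibitors Cdkn2d and Cdkn2c fell by 1.58 ± 0.20 and 1.02 ± 0.20. Cdkn1a (p21) changed by 0.26, with its 3 probes on both sides of 0. Of 38 p53 targets, 4 rose and 3 fell (median 0.04), and the largest rise was that of Perp, a desmosome-associated protein (4.15 ± 0.20).

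Fat cell genes were already moving at day 4, but unevenly. Pparg, the master regulator of fat cell differentiation, had levels of 0.98, 4.63, 4.83 and 4.82, so that nearly all of its rise (3.64 ± 0.06) was in place by day 4. Cebpa, its partner, stood at -0.88, 1.43, 2.53 and 2.28 (2.31 ± 0.20). Prdm16, a factor of brown and beige fat, rose by 4.01 ± 0.27 to -0.26. Zfp423, a factor of committed preadipocytes, rose by 2.66 ± 0.13, with its 3 probes between 1.70 and 3.70. The early adipogenic factors did not move this way. Cebpb changed by -0.23 and Cebpd fell by 1.30 ± 0.20. Of 37 listed transcription factors of adipogenesis, activators and repressors counted together, 8 rose and 5 fell (median -0.09).

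Among 48 measured fat cell effector genes 18 rose and 5 fell (median 0.37, or 0.23 both with probes well above background on the 2 arrays and after scaling to the array median). Plin4, a lipid droplet coat protein, had levels of -1.86, 5.39, 5.69 and 5.59, at its plateau by day 4. Fabp4, the fatty acid binding protein of fat cells, stood at 1.28, 4.24, 6.04 and 7.06, and Gpd1, the enzyme that supplies glycerol phosphate, at -3.96, 0.50, 5.57 and 6.38. These genes kept rising. Other late genes were at background in the control. Adipoq (adiponectin) was at least 14.3-fold higher with a level of -1.51, and stood at 5.86 by day 8. Cfd (adipsin) was at least 4.12-fold higher, with levels of -3.30 at day 4 and 6.59 at day 8. Thrsp was at least 28.7-fold higher and Cidea at least 15.9-fold. Some lipid handling genes fell by day 4 and were higher later. Lpl, the lipase that frees fatty acids from lipoproteins, had levels of 1.65, 0.02, 4.35 and 5.45. The monoglyceride lipase Mgll (2.52, 0.67, 2.57 and 2.89) had regained its control level by day 6. Fasn, the fatty acid synthase, was at -0.59, -0.87, 0.43 and 1.70, within 2-fold of the control at day 4.

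**Figure D3:**
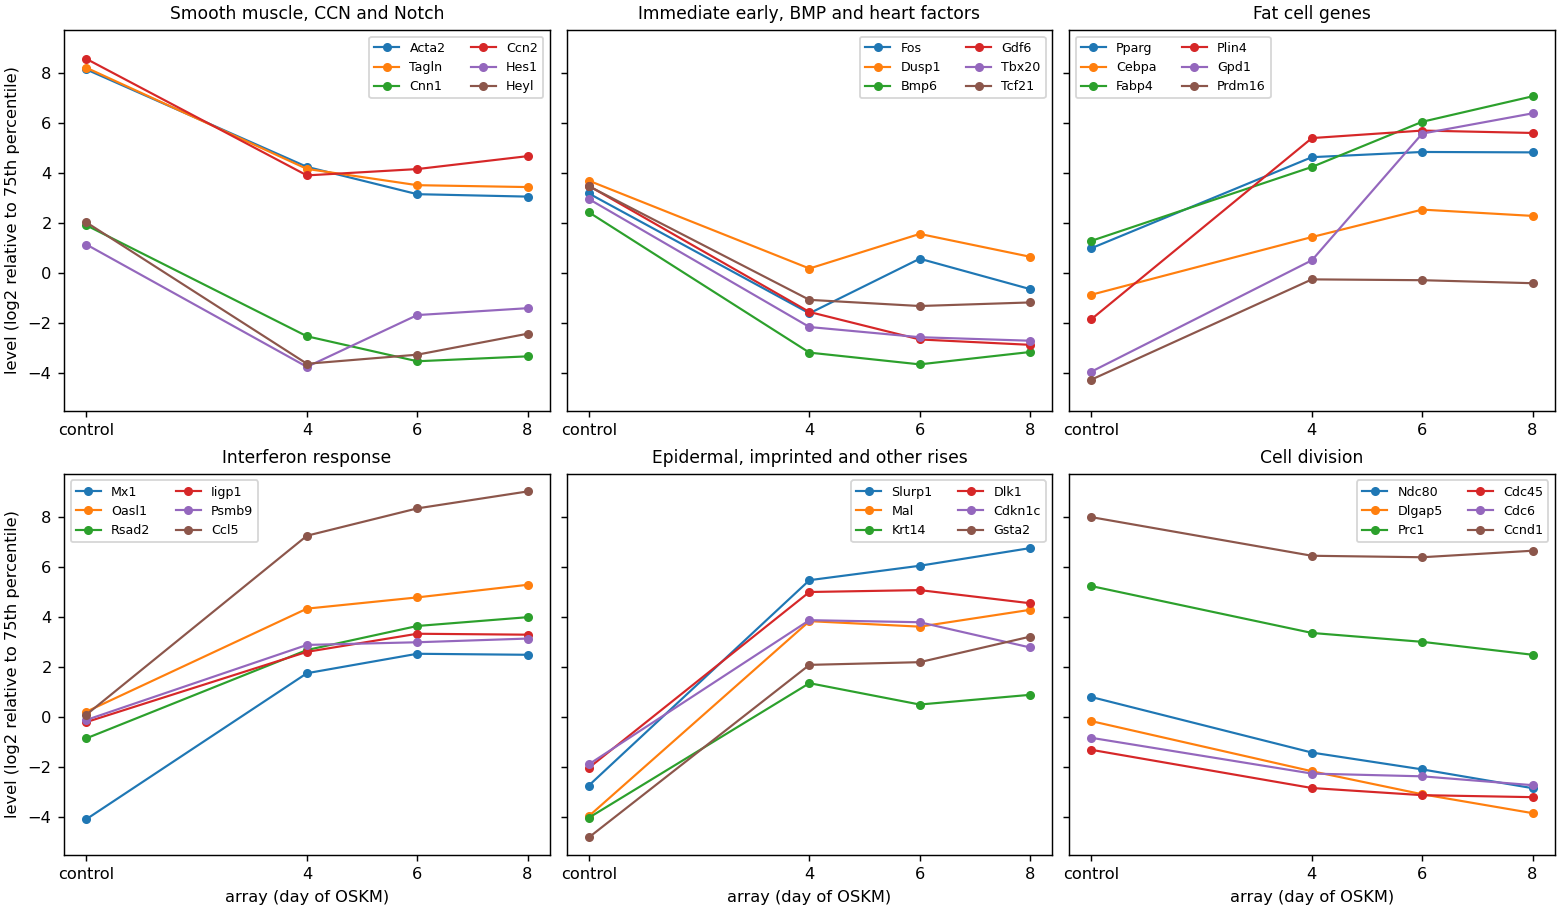
Levels of 36 named genes (y axis, log2 relative to the 75th percentile of each array) on the control array and at days 4, 6 and 8 (x axis), in 6 gene groups. Each point is 1 array with no replicate. Acta2 and Tagln lose most of their signal by day 4, Pparg and Plin4 reach their plateau by day 4, and Fabp4 and Gpd1 rise further to day 8.

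Some genes of lipid and sterol metabolism rose. Of 46 fatty acid oxidation genes, 8 rose and none fell (median 0.37, or 0.23 after scaling to the array median), among them Hadh (1.45 ± 0.20), Acadl (1.27) and Ech1 (1.21). Of 37 cholesterol genes, 8 rose and 2 fell (median 0.34, or 0.19 after scaling to the array median). The enzymes of the mevalonate pathway Idi1 and Hmgcs1 rose by 1.32 ± 0.20 and 1.23 ± 0.20, and Tm7sf2, a sterol reductase, by 2.11 ± 0.15. The exporter Abcg1 fell by 3.24 ± 0.21, and the desaturase Fads2 by 2.39 ± 0.15. In glycolysis and hypoxia-inducible factor targets 11 of 41 genes fell and 5 rose (median -0.64, or -0.38 after normexp correction). Slc16a3, a lactate exporter, fell by 4.28 ± 0.14. Aldoc, an aldolase, rose only for a time, with levels of -2.19, 1.03, -0.96 and -1.73. Respiratory chain genes (78 measured, 1 rose and 2 fell) and cytosolic ribosomal protein genes (79 measured, none past 2-fold) mostly stayed within 2-fold.

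Interferon-stimulated genes were higher at day 4 on a broad front. Of 78 measured, 39 rose and 4 fell (median 0.99). Mx1, a GTPase that blocks virus replication, had levels of -4.10, 1.74, 2.52 and 2.48 (5.84 ± 0.25). Oasl1 stood at 0.20, 4.32, 4.77 and 5.28, and Rsad2 (viperin) at -0.87, 2.67, 3.63 and 3.98. All 3 were lowest on the control array and had made most of their rise by day 4. Ifit1 rose by 2.61 ± 0.20, and Irf7, the factor that amplifies interferon production, by 2.56 ± 0.20. Ifnb1, the gene of interferon β itself, was not well above background in the control and was at least 60.2-fold higher at day 4, with a level of 0.57 that reached 1.61 at day 8. The 4 that fell were Ifi27, Ifitm10, Ifitm1 and Ifi27l2a, with Ifi27 going from 6.71 to 4.83. Of 17 interferon-inducible GTPases, 14 rose and none fell (median 1.84, or 1.11 after normexp correction), led among those measured on both arrays by Iigp1 (2.81 ± 0.14) and Gbp6 (2.73 ± 0.15). Members of these multigene families share sequence, so single members are uncertain.

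Antigen presentation genes and some soluble mediators also rose. Of 31 class I presentation genes, 18 rose and none fell (median 1.31). The immunoproteasome subunits Psmb9 and Psmb8 rose by 3.00 ± 0.20 and 2.19 ± 0.20, and their transactivator Nlrc5 by 1.75 ± 0.20, with its 2 probes at 0.70 and 2.80. B2m, the light chain, changed by 0.82 from a level of 7.35. Among 29 chemokines, cytokines and their receptors, 10 rose and 9 fell (median 0.46, or -0.077 with probes well above background on both arrays). Ccl5 had levels of 0.08, 7.24, 8.33 and 9.01, a 143-fold rise by day 4, while Cxcl13 was at least 100.3-fold higher and Ackr4, a chemokine scavenger, fell by 5.16 ± 0.16. In the complement and acute phase list 12 of 37 rose and 11 fell. Saa3 was at least 54.9-fold higher and C3 rose by 2.68 ± 0.11, whereas Cfi, the protease that inactivates C3b, was at least 38.2-fold lower. Sensors and signalling factors changed less, with 7 of 41 rising and 5 falling. Sting1, an adaptor of DNA sensing, fell by 1.36 and Irf8 by 3.63, and Tlr2 rose by 3.04.

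Detoxification genes included some of the largest rises of the array. Of 72 measured, 21 rose and 10 fell (median 0.33, or 0.18 after scaling to the array median). The glutathione transferase Gsta2 had levels of -4.83, 2.07, 2.18 and 3.20, and Gsta1 of -3.48, 3.38, 3.36 and 4.40. The 2 are closely related and their probes may share signal. Aldh3a1, an aldehyde dehydrogenase, rose by 5.34 ± 0.14 to 7.70, and the dioxin-inducible Cyp1a1 was at least 10.6-fold higher. The retinaldehyde dehydrogenases fell together, with Aldh1a3 at -4.85, Aldh1a1 at -3.06 and Aldh1a2 at -2.77. Among classical Nrf2 targets, Nqo1 rose by 1.47 ± 0.20, while Gclm changed by -0.97 and Hmox1 by -0.27. In the unfolded protein and integrated stress response list, 9 of 42 fell and 3 rose (median -0.49), and those that fell included the amino acid response genes Chac1 (-1.65), Mthfd2 (-1.54) and Asns (-1.42).

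Several genes known from the epidermis and other epithelia were among the largest rises, but others fell. Slurp1, a secreted epidermal protein, had the largest rise of the genes measured on both arrays, with levels of -2.75, 5.46, 6.04 and 6.74 (8.22 ± 0.21, 297-fold). Mal, a membrane protein of myelin and epithelia, followed at -3.98, 3.82, 3.60 and 4.28. Dmkn (dermokine) was at least 252-fold higher, Krt17 at least 113-fold and Krt8 at least 84.2-fold, and Krt90 measured 236-fold higher. None of Dmkn, Krt17, Krt8 and Krt90 was well above background in the control. Of 31 keratin genes measured, 17 rose and 1 fell (median 1.80), including Krt14 (5.38 ± 0.24) and Krt16 (4.91 ± 0.20), while Krt5, the usual partner of Krt14, changed by -0.81. The keratin median was 1.06 with dim values set to the floor of their array and 0.33 after normexp correction. Late cornified envelope genes, which are clustered and alike in sequence, rose in 12 of 15 cases (median 2.34, or 0.76 after normexp correction), and kallikrein peptidases, chosen for naming after their values were seen, in 12 of 18 (median 1.22, or 0.45 after it). The E-cadherin gene Cdh1 was at least 8.07-fold higher, at a level of -2.33, and the desmosome gene Dsp at least 34.6-fold. Among 33 EMT and epithelial genes 13 rose and 5 fell (median 0.30, or 0.11 with probes well above background on both arrays). Of other epithelial genes, Sprr3 was at least 38.0-fold lower, Cdh3 at least 6.14-fold lower, and Esrp2 fell by 1.39 ± 0.25. Snai1 and Snai2, repressors of epithelial genes, fell by 1.38 and 1.26, and Vim and Twist1 stayed within 2-fold at -0.19 and -0.21.

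Of 24 imprinted growth genes, 10 rose and 1 fell (median 0.65, or 0.33 after normexp correction). Dlk1, an inhibitor of fat cell differentiation, had levels of -2.05, 4.99, 5.06 and 4.54 (7.04 ± 0.16, with its 2 probes at 7.02 and 7.05). Mest rose by 2.55 ± 0.14 over 3 probes and then declined to -2.20 at day 8, against -3.08 in the control. The osteocalcin genes Bglap2 and Bglap3 rose by 7.32 ± 0.28 and 6.61 ± 0.20, the latter with its 2 probes at 6.06 and 7.16. These near-identical copies cannot be separated with certainty. Across 33 cartilage, bone and tendon genes 7 rose and 8 fell, and the phosphatase Alpl fell by 2.95.

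Pluripotency genes other than the factors moved in both directions. Of 26 measured, 6 rose and 6 fell (median -0.05). Nanog changed by 0.11 from a level of -0.68, and Fut4, which makes the SSEA1 epitope, rose by 1.64 ± 0.22. Fgf4 was higher from a level at background, and Trim71 was at background by day 4. Zfp42, Dppa3 and Nr0b1 were not well above background on either array. Of 72 chromatin regulators 2 rose and 3 fell, and those that fell were Dnmt3l, Asf1b and Uhrf1.

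The largest falls not yet named included the endothelial factor gene Sox7 (-6.17 ± 0.33), the epithelial Scel (-5.97 ± 0.21) and Klhl6 (-5.78 ± 0.30). D630010B17Rik, of no stated function here, fell by 7.09 ± 0.23. By symbol stem, the families with the lowest medians among 255 with at least 8 measured genes were Speer (-3.13), Efcab (-1.06), Tubb (-1.05), Haus (-0.84) and Septin (-0.72). Speer genes are near-identical copies, and their probes count as 1 signal of uncertain source. Their median was -0.60 after normexp correction. Of the β-tubulins 5 of 9 fell, and of the Haus subunits of augmin 2 of 8. The highest medians besides Lce were those of the carboxylesterases Ces (1.90), the Gbp family (1.85), the keratins (1.80) and the aquaporins Aqp (1.38). After normexp correction the medians were -0.40 for Efcab, 0.62 for Ces, 1.07 for Gbp and 0.66 for Aqp. Probes for long intergenic RNAs changed about as often as named ones, with 764 of 7293 rising and 581 falling.

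Promoter windows of 300 bases, 250 before and 50 after the start, were available for 12692 of the genes (15980 windows). The core of the interferon-stimulated response element was found in 50% of the windows of interferon-stimulated genes and in 7.18% of all windows. The share was 63.3% for the members that rose and 45.2% for those within 2-fold. Among all genes at least 4-fold higher it was 8.58%, and among those at least 4-fold lower 8.62%. The CArG box was present in 27.5% of the windows of the smooth muscle list (35.3% for members that fell and 22.7% for those within 2-fold), in 4.01% of windows of genes at least 4-fold lower and in 1.42% of all windows. Genes at least 4-fold lower include Acta1 and other members of that list, so the 2 shares are not separate. In mitotic genes the CCAAT box was in 72.2% of windows against 37.6% of all windows, and the cell cycle homology region (TTTGAA) in 62.5% against 12.7%. These 2 shares were alike for members that fell (75% and 63.6%) and members within 2-fold (67.9% and 60.7%). The E2F site (TTTGGCGC) was in 12.7% of licensing and fork windows against 0.807% of all windows. Its share was lower for members that fell (6.67%, 1 of 15 windows) than for members within 2-fold (15%, 6 of 40). The sterol element (TCACNCCAC) was in 1 of 31 cholesterol windows. The E-box CACGTG, which Myc can bind, was in 6.68% of windows of genes at least 4-fold higher, 6.01% of those lower and 9.09% of all. Both strands were searched. A match is a description of letters in the window and not evidence of binding.

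**Figure D4:**
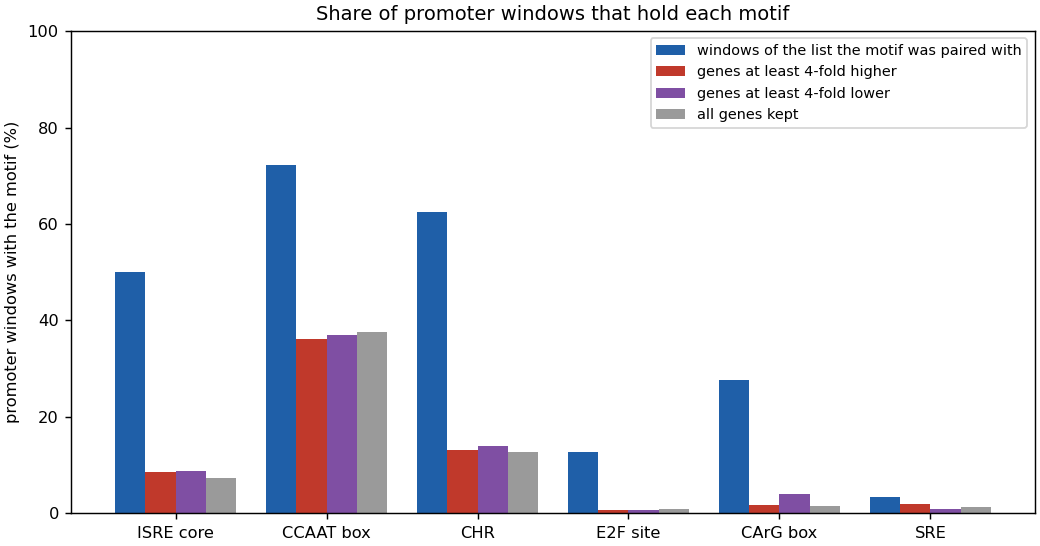
Share of 300-base promoter windows (y axis, %) that hold each of 6 motifs on either strand (x axis), for the gene list the motif was paired with, genes at least 4-fold higher, genes at least 4-fold lower and all genes kept. The bars for the interferon, mitotic and smooth muscle motifs are tallest in their own list, while the bars for genes at least 4-fold higher or lower stay near those for all genes, apart from the CArG box in genes at least 4-fold lower (4.01% against 1.42%). Genes at least 4-fold lower include Acta1 and other members of the smooth muscle list, so their CArG share is not separate from that list. Each list was paired with a motif named for that gene group, so a tall bar in the own list does not bear on day 4.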

How the data were processed

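The authors deposited Feature Extraction files (version 10.7.3.1 per the file headers, 9.5.3 in the submitters' processing notes) with a background-subtracted Cy3 intensity for each of 62976 spots. They also deposited a table of log2 values, which equals the log2 intensity shifted by a constant on each array. Control spots (3671) and spots flagged as outliers (103 for CMP control, 87 for day 4) were left out here. The log2 signal was averaged over the spots of a probe and the 75th percentile of the array subtracted. Probes were named through RefSeq (GRCm38.p6): 26863 by accession, 3752 by symbol, 623 by synonym and 24443 not at all. Where several kept probes stood for 1 gene, their values were averaged.

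For a gene at background on 1 array, the bound is its level on the other array over the higher of the dim value and the lowest level well above background. Where the dim value was the higher, as for Krt90 and Tnni3, this equals the measured fold and is not a lower limit. Because some dim values lay above that lowest level, the bounds are approximate. With 1 array per condition there was no test. Gene lists (43, written by hand) and members were chosen with earlier results of these data known, as were the genes named, taken by size of change over all genes and in each list, with list members of textbook standing given by value. The steps were tested on simulated data. Alternatives used normexp (offset 50) and quantile normalization in limma 3.58.1 (R 4.3.3). Other work used Python 3.11.15, numpy 2.4.6 and pandas 2.3.3. Some genes are not reported here. The number of arrays limits the precision.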

Additional observations from a re-analysis of the deposited data

How the results depend on the processing

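No paired analysis was possible because only 1 array was made per condition, and for the same reason no array could be left out. The technical SD of 0.12 describes the spotting of single probes and not the spread of a list median, so it served only as a cut-off. Of 42 lists, 30 had a median change beyond it, and 29 of these kept their sign in all 8 alternatives that recompute values. The exception was the chemokine list, whose median became -0.077 with probes well above background on both arrays. Of 294 named genes past 2-fold, 71 had no value with probes well above background on both arrays, since none of their probes was so. The other 223 had a value in every alternative, and 196 of them stayed past 2-fold throughout. All 294 kept their sign in each alternative that gave a value. These genes were named largely for the size of their change on the same 2 arrays, so their kept signs are not separate evidence. With normexp and quantile normalization the counts of genes higher and lower became 886 and 799 and those of probes 1293 and 1224, and the medians became -0.58 for licensing and fork genes, -0.95 for mitotic genes, -0.61 for smooth muscle genes, -0.18 for collagens and 0.78 for interferon-stimulated genes. Quantile normalization alone gave 0.47 for cholesterol genes. The array median as the scale shifted all genes by -0.14 and turned the share of changed genes that rose from 54.8% to 46.6% (1678 higher and 1922 lower). The medians were then -0.86 for licensing and fork, -1.33 for mitotic, -0.95 for smooth muscle, -0.68 for collagen, 0.23 for adipocyte, 0.19 for cholesterol, 0.85 for interferon-stimulated and 0.18 for detoxification genes. With no filter, 5702 probes were higher and 4513 lower, and the collagen median was -0.063. With probes well above background on both arrays, 1221 genes and 2085 probes were higher, 1879 probes were lower, and the adipocyte median was 0.23. At a 4-fold threshold 877 genes and 1439 probes were higher, and 567 genes and 968 probes were lower. The filters and the threshold change how many probes are tested or called, and the cause of the other shifts was not tested. Dim genes have at most approximate bounds, and single arrays leave the spread between cultures unknown.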
